A study of Homo sapiens with 30 samples.

Results

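The 9 enzymes that build serine and pass its carbon to folate were followed in human acute myeloid leukemia cell lines: PHGDH, PSAT1, PSPH, SHMT1, SHMT2, MTHFD1, MTHFD2, MTHFD1L and ALDH1L2. They were chosen by name for their place in the pathway, with earlier results of these data known. They make up 9 of the 60675 genes listed in one count table and of the 58051 genes in the other. All 9 passed the filter on low counts in both tables, where 17542 and 14490 genes were tested. RNA-seq had been run on 30 libraries in 10 groups of 3. In the OE series, MV4-11 and Molm-14 cells carried either a lentiviral vector with the host gene sequence of MIR1-2, driven by an EF1α promoter and marked with GFP (miR-1 OE), or an empty vector (EV). The KO series added the THP-1 line to these, and its cells held either a lentiviral CRISPR/Cas9 construct with 1 guide against MPC1, a subunit of the mitochondrial pyruvate carrier (MPC1 KO), or its EV. Every group, controls included, thus consisted of vector-carrying cells, and the time in culture was not given in the sources used here. MV4-11 and Molm-14 carry the FLT3-ITD mutation and THP-1 does not. The medium was RPMI with 10% serum, supplemented with pyruvate, glutamine and non-essential amino acids, the last of which include serine. The labels do not say whether the replicates of a group were separate cultures, so the p-values measure the spread between libraries, which may be technical.

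PHGDH, PSAT1 and PSPH act in the cytosol in that order and turn a glycolytic intermediate into serine. SHMT1 in the cytosol and SHMT2 in mitochondria then split serine into glycine and a one-carbon unit carried on folate. MTHFD2, MTHFD1L and ALDH1L2 handle that unit inside mitochondria, with MTHFD1L releasing formate and ALDH1L2 releasing carbon dioxide, and MTHFD1 takes formate up again in the cytosol for purine and thymidylate synthesis. Many proliferating leukemia cells run this route, and the transcription factor ATF4, which responds to amino acid shortage and mitochondrial stress, is a known activator of PHGDH, PSAT1, PSPH, SHMT2, MTHFD2, MTHFD1L and ALDH1L2. MYC is another known activator of serine and folate genes.

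Total counts per library ran from 15543301 to 20939985 in the OE series and from 5339360 to 9106478 in the KO series. The labels were borne out by their targets. MPC1 was lower in KO than in EV cells in MV4-11 by a log2 fold change of -1.18, in Molm-14 by -1.04 and in THP-1 by -0.84, and the miR-1 host transcript MIR133A1HG had 34 to 73 counts in each OE library and 0 in each EV library. Myeloid markers were present in every library, with a summed level of 842 to 8777 CPM over 9 genes (counts divided by the TMM-scaled library total and set to a common scale). Erythroid, lymphoid and fibroblast markers were at or near 0, with sums of at most 0.266, 2.26 and 0.923 CPM, while the 4 epithelial markers summed to as much as 35.8 CPM in Molm-14. The part of these marker levels in any result below was not tested. The 6 MV4-11 libraries of the OE series stood apart from one another in both groups, as described with the overexpression results.

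Among EV cells, Molm-14 had more transcript of 8 of the 9 enzymes than MV4-11, and this held in both tables. The 2 tables had been made separately, so levels are compared only within each. PHGDH, the enzyme that commits carbon to serine, differed most. In the KO series PHGDH stood at 6.38, 7.0 and 7.40 CPM in the MV4-11 EV libraries and at 166, 164 and 169 CPM in Molm-14, with THP-1 between them at 64.9, 70.0 and 65.8 CPM. No library of one line overlapped another. The fitted log2 fold change of Molm-14 over MV4-11 was 4.59 (SE 0.12), or 24.1-fold. In the OE series PHGDH stood at 165, 168 and 169.8 CPM in Molm-14 EV but at 12.4, 5.93 and 51.4 CPM in MV4-11 EV, giving a log2 fold change of 2.88 (SE 0.78). The third MV4-11 EV library weighed on that value, which was 4.22 without it.

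ALDH1L2, the mitochondrial formyl-folate dehydrogenase, followed with log2 fold changes of 3.89 (SE 0.26) in the KO series and 1.69 (SE 0.45) in the OE series. In the KO series it stood at 6.5, 14.1 and 12.5 CPM in MV4-11 EV, 129, 208 and 146 CPM in Molm-14 EV, and 51.5, 62.8 and 75.0 CPM in THP-1 EV. SHMT2, the mitochondrial serine-splitting enzyme, came next in the KO series. Its level was 187, 140.0 and 161 CPM in MV4-11, 669, 568 and 611 CPM in Molm-14, and 187, 162 and 143 CPM in THP-1. Molm-14 exceeded both other lines in SHMT2, which overlapped one another. PSAT1, the aminotransferase that follows PHGDH, showed the same arrangement, at 36.6 to 49.2 CPM in MV4-11, 139 to 169 CPM in Molm-14 and 45.3 to 47.1 CPM in THP-1.

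By edgeR's quasi-likelihood test with Benjamini-Hochberg adjustment, 8 of 9 enzymes were called higher in Molm-14 than in MV4-11 EV at a 5% false discovery rate (FDR) in the KO series, where 61.7% of all genes tested were called in either direction and 31.6% were called higher. The median log2 fold change of the 9 was 1.56, against 0.00 over all genes tested. The remaining called enzymes in that table were PSAT1 at 1.77, PSPH, the phosphatase of the last step, at 1.56, MTHFD2 at 1.21, SHMT1 at 0.80 and MTHFD1L at 0.52. In the OE series 8 of 9 were again called higher, where 64.8% of all genes were called and 31.9% were called higher. There PSAT1 differed by 1.55, SHMT2 by 1.29, PSPH by 0.97, MTHFD1L by 0.65, MTHFD2 by 0.63 and SHMT1 by 0.44 on the log2 scale. The exception was MTHFD1, the cytosolic enzyme, at -0.17 (SE 0.10, adjusted p = 0.154) in the KO series and 0.01 (SE 0.07, adjusted p = 0.892) in the OE series. MTHFD2 in the OE series was near the threshold, with an adjusted p of 0.0479, and lost the call when the first or second MV4-11 EV library or any one Molm-14 EV library was left out, at adjusted p-values of 0.0861 to 0.146. It also lost the call without the filter on low counts (adjusted p = 0.0721) and with the compared groups fitted alone (adjusted p = 0.0830). MTHFD1 in the KO series was called lower in Molm-14 without the first MV4-11 EV library (-0.30, adjusted p = 0.00683) and without the second Molm-14 EV library (-0.26, adjusted p = 0.0398).

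**Figure D1:**
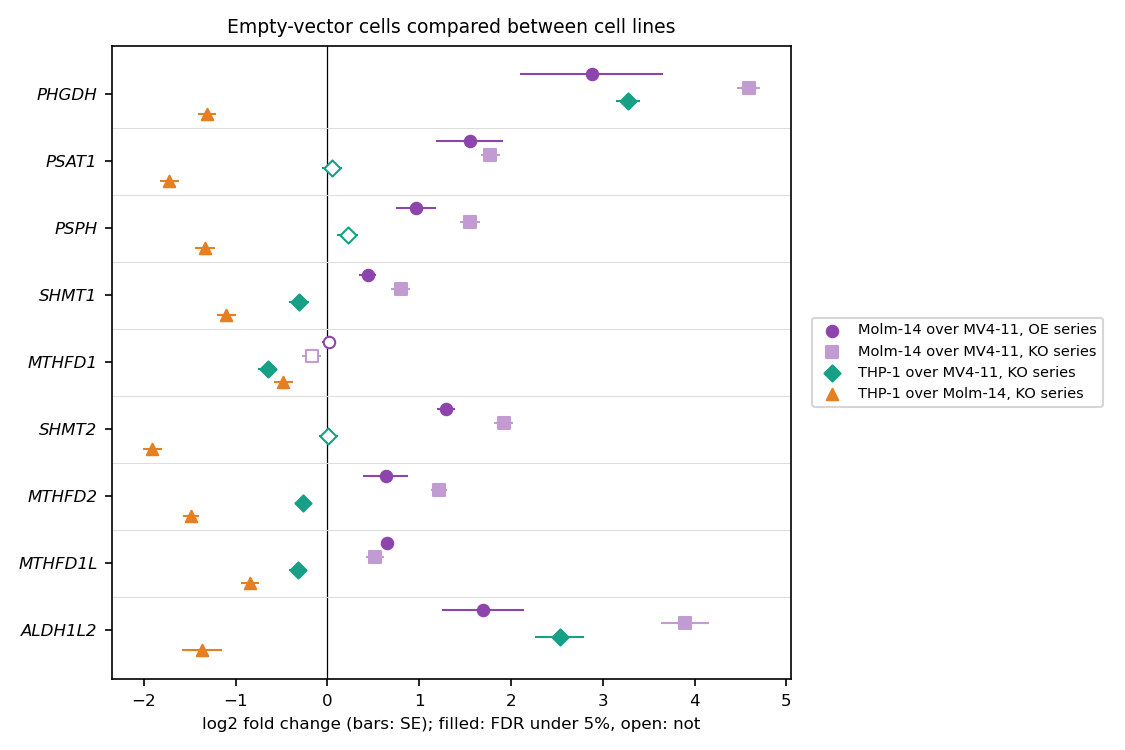
Log2 fold change of each enzyme between EV cells of different lines (x axis, with SE bars), with 1 row per gene; filled symbols passed the 5% FDR. Molm-14 exceeded MV4-11 for every enzyme but MTHFD1 in both tables, and THP-1 lay below Molm-14 for all 9.

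THP-1 EV cells were below Molm-14 for all 9 enzymes, in a comparison where 69.6% of genes were called and 34.1% were called lower. The log2 fold changes ran from -1.91 for SHMT2 and -1.73 for PSAT1 to -0.48 for MTHFD1. Against MV4-11, THP-1 was mixed, with 6 of 9 called where 67.5% of genes were called. PHGDH (3.27, SE 0.13) and ALDH1L2 (2.53, SE 0.27) were higher in THP-1. MTHFD1 (-0.65, SE 0.10), MTHFD1L (-0.32, SE 0.10), SHMT1 (-0.31, SE 0.11) and MTHFD2 (-0.27, SE 0.08) were lower. PSAT1 (0.05, SE 0.11), PSPH (0.22, SE 0.12) and SHMT2 (0.01, SE 0.10) did not pass. SHMT1 lost its call under DESeq2 (adjusted p = 0.0619), without the filter on low counts, and without the first MV4-11 or the second THP-1 EV library (adjusted p = 0.0556 and 0.0904). PSPH gained one under RLE factors (adjusted p = 0.0463) and without the first MV4-11 or the third THP-1 EV library (adjusted p = 0.0397 and 0.0445). The 3 comparisons between lines share their EV libraries. For PHGDH and ALDH1L2 the order was Molm-14, THP-1, MV4-11 with no overlap of libraries, whereas SHMT2, PSAT1 and PSPH overlapped between THP-1 and MV4-11.

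**Figure D2:**
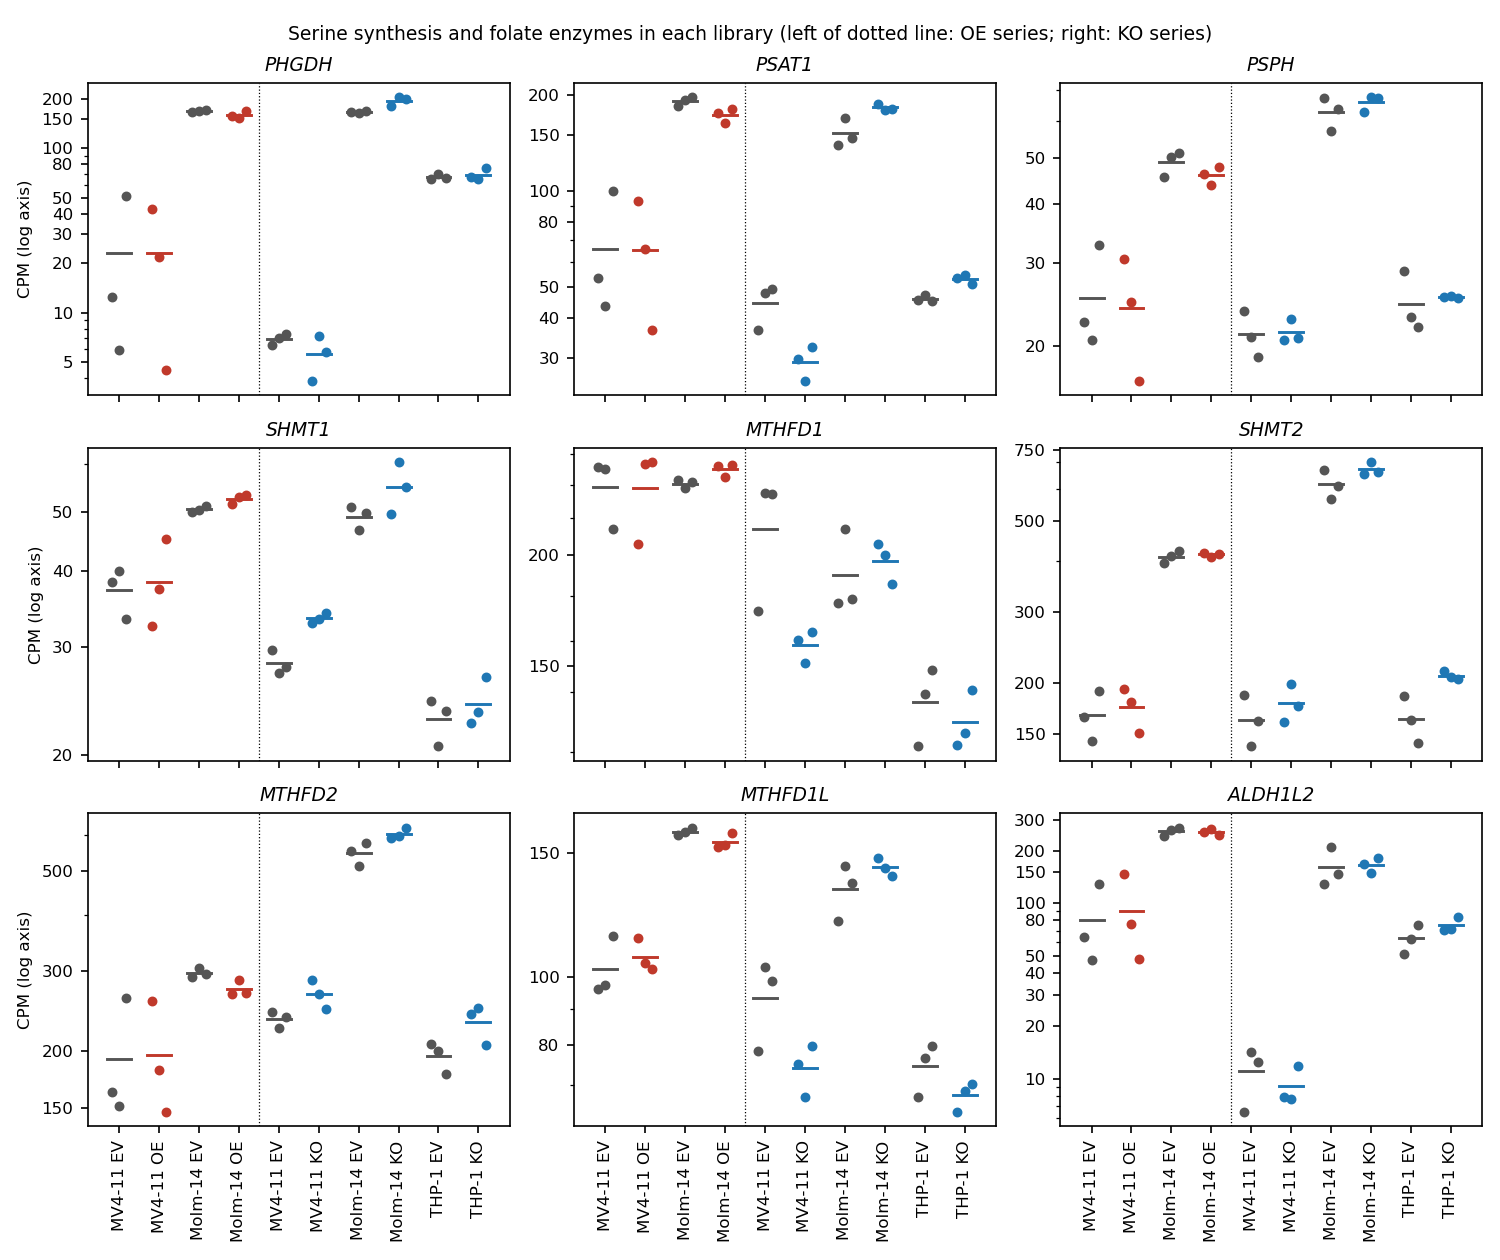
CPM of each enzyme (y axis, log scale) in all 30 libraries by group, with a point per library and a bar at the mean of the 3. MV4-11 has the lowest PHGDH and ALDH1L2, its OE-series libraries are spread widely in both groups, and PSAT1 in MV4-11 is lower in KO (25.3 to 32.3 CPM) than in EV (36.6 to 49.2 CPM).

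Levels of different genes were compared per length, as RPKM, which is CPM divided by the length of the Ensembl canonical transcript in kilobases. SHMT2 was the most abundant of the 9 in every EV group, at a mean of 75.5 ± 10.9 RPKM (SD, n = 3) in MV4-11, 286 ± 23.5 in Molm-14 and 75.9 ± 10.2 in THP-1 of the KO series. In MV4-11 the libraries of SHMT2 overlapped those of MTHFD1, second at 67.9 ± 11.3 RPKM, and MTHFD1 in turn overlapped MTHFD2 at 53.6 ± 2.23. MTHFD1L, PSAT1, SHMT1 and PSPH followed at 27.0, 20.2, 11.2 and 10.7 RPKM, of which SHMT1 and PSPH overlapped. PHGDH at 3.71 ± 0.27 and ALDH1L2 at 1.49 ± 0.54 RPKM closed the order, each apart from its neighbor. In Molm-14 PHGDH ranked 3rd, at 89.1 ± 1.46 RPKM, after MTHFD2 at 124 ± 7.54, and SHMT1 was last at 19.5 ± 0.85. The order below SHMT2 depended on the transcript length used: by the union of all annotated exons, MTHFD1 ranked 5th in place of 2nd in MV4-11 and 8th in place of 5th in Molm-14. SHMT2 stayed first by either length.

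The balance between compartments was compared as ratios within libraries, by canonical transcript length. The length chosen scales a ratio by the same factor in every group. By union length MTHFD2 ranked 2nd and MTHFD1 5th in MV4-11 EV of the KO series, so which of them exceeded the other depended on the length. The per-length ratio of mitochondrial SHMT2 to cytosolic SHMT1 was 6.03 to 7.37 in MV4-11 EV, 14.2 to 15.4 in Molm-14 EV and 7.09 to 9.21 in THP-1 EV libraries of the KO series. In the OE series it was 4.22 to 6.72 in MV4-11 EV and 9.21 to 9.65 in Molm-14 EV. The ratio of MTHFD2 to MTHFD1 was 0.687 to 1.013 in MV4-11 EV and 1.71 to 2.32 in Molm-14 EV of the KO series, without overlap, while THP-1 EV, at 0.860 to 1.22, overlapped MV4-11. In the OE series that ratio was 0.434 to 0.875 in MV4-11 EV and 0.859 to 0.918 in Molm-14 EV, which overlapped.

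Other genes of the pathway did not all share a direction between the lines. Folate and transport genes were mixed, while methionine cycle and transsulfuration genes were called only higher in Molm-14 in both tables. In the OE series 4 of 7 of the latter were called higher, where 31.9% of all genes were called higher. Of 11 other folate enzymes and transporters tested in the KO series, 4 were called higher in the Molm-14 EV libraries and 3 were called lower, where 61.7% of all genes were called. They included MTFMT (1.95, SE 0.16), which formylates the mitochondrial initiator tRNA, SLC25A32 (1.07, SE 0.08), the mitochondrial folate carrier, and SLC46A1 (-3.14, SE 0.36), the proton-coupled folate transporter. Of 7 methionine cycle and transsulfuration genes, 5 were called higher and 0 lower, among them CTH (2.58, SE 0.29) and CBS, the enzymes that route serine into cysteine. CBS had 1, 2 and 0 counts in the MV4-11 EV libraries and 17, 24 and 20 counts in Molm-14 EV. Of 8 serine and glycine transporters, 3 were called higher and 2 lower, with SLC38A1 at 2.45 (SE 0.08) and SFXN3 at -1.32 (SE 0.09). Of 3 glycine cleavage genes tested, GLDC was the 1 called, with 0 counts in each MV4-11 EV library and 1, 1 and 4 counts in Molm-14 EV. Of 16 genes of the ATF4 response, 14 were called higher and 1 lower in that comparison, with a median log2 fold change of 1.56, among them DDIT4 (5.08, SE 0.12) and SLC7A11 (3.92, SE 0.11), and STC2, which had 0 counts in each MV4-11 EV library and 76, 93 and 70 counts in Molm-14 EV. In the OE series 5 of 15 ATF4 response genes were called higher and 2 lower, where 31.9% of all genes were called higher and 64.8% were called. Their summed level in the MV4-11 EV libraries of that series was 929, 776 and 1508 CPM. Of 12 proliferation genes, 3 were called higher and 3 lower in the KO series, and 2 higher and 7 lower in the OE series.

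With MPC1 KO, enzymes passed the test only in MV4-11. There PSAT1, MTHFD1 and MTHFD1L fell. PSAT1 stood at 36.6, 47.9 and 49.2 CPM in EV and at 29.7, 25.3 and 32.3 CPM in KO libraries. The groups did not overlap, and the log2 fold change was -0.61 (SE 0.11, adjusted p = 0.00187). MTHFD1 stood at 173, 235 and 235 CPM in EV and at 160.4, 151 and 164 CPM in KO libraries, a log2 fold change of -0.43 (SE 0.10, adjusted p = 0.0146), with the first EV library close to the KO libraries. MTHFD1L stood at 78.2, 103 and 98.5 CPM in EV and at 75.1, 67.3 and 79.6 CPM in KO libraries, which overlapped, with a log2 fold change of -0.33 (SE 0.10, adjusted p = 0.0475).

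These 3 of 9 compare with 5.41% of all 14490 genes called in MV4-11 KO, and 2.24% called lower. The median log2 fold change of the 9 was -0.25, against 0.02 over all genes tested. The fall of PSAT1 kept its call under each alternative tried, with log2 fold changes of -0.74 to -0.51 when 1 library was left out. MTHFD1 and MTHFD1L lost theirs when the second or the third EV library or the first or second KO library was left out, at adjusted p-values of 0.0664 to 0.131 for MTHFD1 and 0.148 to 0.227 for MTHFD1L. They also lost it when the MV4-11 libraries were fitted alone (adjusted p = 0.0513 and 0.103).

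In MV4-11 the share of counts from mitochondrial genome genes also differed between EV and KO libraries. It was 0.211%, 0.452% and 0.392% in the MV4-11 EV libraries and 0.161%, 0.140% and 0.202% in the KO libraries, without overlap. EV 2 and EV 3 had the highest shares and also the highest MTHFD1, MTHFD1L and PSAT1. Within the MV4-11 KO libraries these enzymes ran in the order of the share, lowest in KO 2 and highest in KO 3. In Molm-14, EV 2 had both the highest share, 0.306% against 0.177% to 0.214% in the other 5 libraries, and the highest MTHFD1, at 214 CPM. Within the Molm-14 EV libraries and within the Molm-14 KO libraries PSAT1 ran in the order of the share. Between the groups it did not, being lower in EV 2 than in each KO library. In THP-1 the share was 0.200%, 0.246% and 0.351% in EV and 0.198%, 0.204% and 0.298% in KO libraries, which overlapped. SHMT2 ran in the reverse order of the share within the EV libraries of each line and within the THP-1 KO libraries. The part of this share in the levels of SHMT2, or in the fall of PSAT1, MTHFD1 and MTHFD1L, was not tested.

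The other 6 enzymes did not pass in MV4-11. SHMT1 stood at 29.7, 27.2 and 27.9 CPM in EV and 32.9, 33.5 and 34.2 CPM in KO libraries, without overlap, at a log2 fold change of 0.24 (SE 0.10, adjusted p = 0.160). MTHFD2 was at 0.18 (SE 0.08, adjusted p = 0.199), also without overlap. With PSAT1 and MTHFD1, groups did not overlap for 4 of 9 enzymes in MV4-11, against 24.1% of all genes tested. SHMT2 was at 0.13 (SE 0.10), PSPH at 0.01 (SE 0.12), PHGDH at -0.28 (SE 0.17) and ALDH1L2 at -0.25 (SE 0.32). PHGDH and ALDH1L2 were at no more than 14.1 CPM in these libraries, and their SEs were the largest of the 9. The per-length ratio of MTHFD2 to MTHFD1 was 0.687 to 1.013 in EV and 1.08 to 1.28 in KO libraries.

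**Figure D3:**
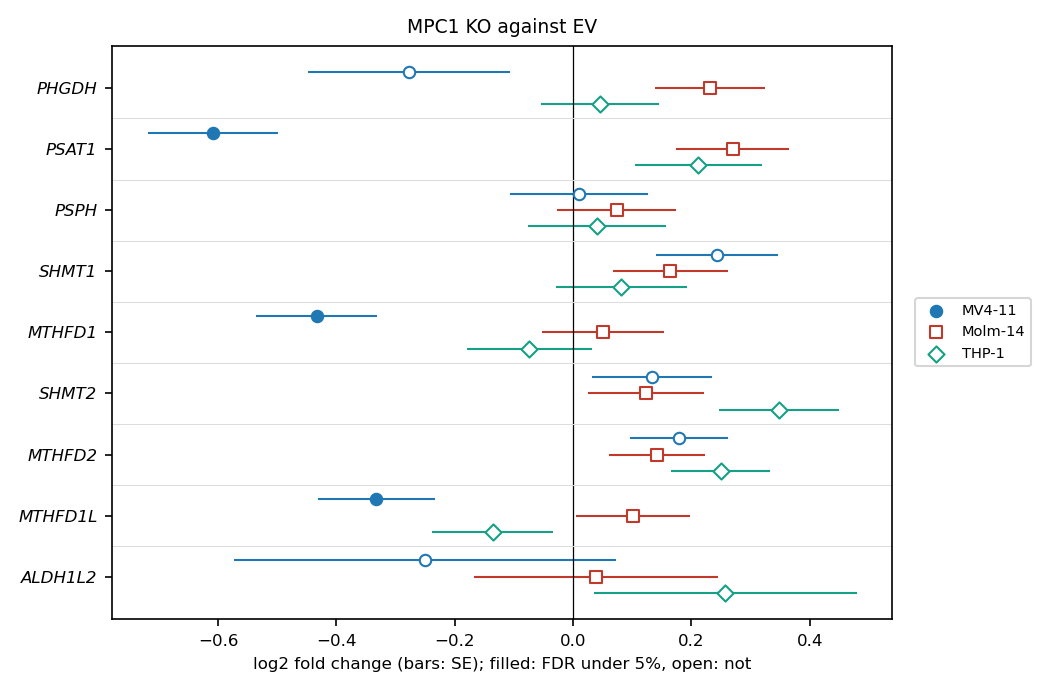
Log2 fold change of each enzyme in MPC1 KO against EV cells (x axis, with SE bars) in MV4-11, Molm-14 and THP-1; filled symbols passed the 5% FDR. PSAT1, MTHFD1 and MTHFD1L are the 3 filled points, all MV4-11, and Molm-14 lies to the right of 0 for all 9 enzymes without passing.

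In Molm-14 KO, 0 of 9 enzymes passed edgeR's test or DESeq2, where 2.4% of genes were called. An unadjusted p under 0.05 was held by 2 of them and by 1552 of all 14490 genes tested. PSAT1 stood at 139, 169 and 147 CPM in EV and 188, 179.9 and 181 CPM in KO libraries, a log2 fold change of 0.27 (SE 0.10, adjusted p = 0.186). PHGDH stood at 166, 164 and 169 CPM in EV and 180.3, 204 and 200.5 CPM in KO libraries, at 0.23 (SE 0.09, adjusted p = 0.293). Groups did not overlap for these 2 genes or for MTHFD2, 3 of 9 enzymes, against 16.4% of all genes tested. All 9 estimates were above 0, from 0.04 for ALDH1L2 to 0.27 for PSAT1. Their median was 0.12, against 0.00 over all genes tested. They share the same 6 libraries, and the estimate for ALDH1L2 reached -0.10 when 1 library was left out. In THP-1 KO, 0 of 9 passed either tool, where 0.0897% of genes were called. An unadjusted p under 0.05 was held by 2 of them and by 1160 of all 14490 genes tested. SHMT2 stood at 187, 162 and 143 CPM in EV and at 214, 207 and 205 CPM in KO libraries, without overlap, at 0.35 (SE 0.10, adjusted p = 0.330). MTHFD2 was at 0.25 (SE 0.08, adjusted p = 0.431) and PSAT1 at 0.21 (SE 0.11, adjusted p = 0.640). Groups did not overlap for SHMT2 and PSAT1, 2 of 9 enzymes, against 13.6% of all genes tested.

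The difference of the KO effect between lines was tested as an interaction. For PSAT1 the effect in Molm-14 exceeded that in MV4-11 by 0.88 on the log2 scale (SE 0.15, adjusted p = 0.00111), and that in THP-1 exceeded it by 0.82 (SE 0.15, adjusted p = 0.0118). PSAT1 was 1 of 9 called in each of these comparisons, where 1.48% and 0.193% of genes were called. Both use the same 6 MV4-11 libraries. Without the third MV4-11 EV library the THP-1 difference was 0.74 with an adjusted p of 0.0608. For MTHFD1 the Molm-14 difference was 0.48 (SE 0.15, adjusted p = 0.0954) and for MTHFD1L 0.43 (SE 0.14, adjusted p = 0.119). Without the first MV4-11 EV library these were 0.62 and 0.55 and passed, at adjusted p-values of 0.00531 and 0.0172. MTHFD1 also passed without the second Molm-14 EV library (0.58, adjusted p = 0.0403) and without the filter on low counts (0.52, adjusted p = 0.00707). Between THP-1 and Molm-14, 0 of 9 differed by edgeR or DESeq2, where 0.766% of genes were called, and 0 had an unadjusted p under 0.05.

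The promoters of the 3 genes called lower in MV4-11 KO are shown for that call alone. In the other lines none of the 3 was called. PSAT1, MTHFD1 and MTHFD1L were at 0.27, 0.05 and 0.10 in Molm-14 KO and at 0.21, -0.07 and -0.14 in THP-1 KO on the log2 scale. RefSeq windows from 250 bases before to 50 bases after a start site on GRCh38.p14 were held for 6 of the 9 enzymes. Both strands were searched for TGATGNAA, the core of the element that ATF4 binds with a C/EBP partner, and for CACGTG, the E-box read by MYC and related factors. Capitals mark the matches.
PSAT1, chr9:78296875-78297174, plus strand: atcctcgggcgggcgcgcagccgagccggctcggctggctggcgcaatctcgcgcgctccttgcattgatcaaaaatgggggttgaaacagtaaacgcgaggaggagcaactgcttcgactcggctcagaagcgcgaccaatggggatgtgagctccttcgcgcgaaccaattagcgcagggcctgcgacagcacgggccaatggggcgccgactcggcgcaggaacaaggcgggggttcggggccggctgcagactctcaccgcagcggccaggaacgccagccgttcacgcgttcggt
MTHFD1, chr14:64388103-64388402, plus strand: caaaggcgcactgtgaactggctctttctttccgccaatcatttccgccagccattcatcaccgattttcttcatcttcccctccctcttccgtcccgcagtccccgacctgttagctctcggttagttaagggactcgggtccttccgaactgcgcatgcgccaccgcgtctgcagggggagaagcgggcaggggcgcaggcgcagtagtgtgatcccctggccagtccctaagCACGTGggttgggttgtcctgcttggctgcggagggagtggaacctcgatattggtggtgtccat
MTHFD1L, chr6:150866236-150866535, plus strand: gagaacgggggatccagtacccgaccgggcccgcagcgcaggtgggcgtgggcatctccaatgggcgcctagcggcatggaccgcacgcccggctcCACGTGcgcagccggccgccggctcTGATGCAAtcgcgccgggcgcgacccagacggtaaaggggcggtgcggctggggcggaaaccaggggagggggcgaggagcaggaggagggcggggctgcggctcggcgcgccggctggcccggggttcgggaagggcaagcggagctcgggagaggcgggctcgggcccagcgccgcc

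The MTHFD1 window holds CACGTG 15 bases before the start. The MTHFD1L window holds CACGTG 154 bases and TGATGCAA 129 bases before the start, and these letters recur in 3 of its 4 windows, which overlap. The PSAT1 window holds neither, nor do those of PHGDH, MTHFD2 and SHMT1. Of 35116 windows of this length over all genes, 3.62% hold TGATGNAA and 7.26% hold CACGTG. Neither motif is present in all 3 printed windows.

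Of the 57 genes tested in the lists of related steps, ATF4 response and proliferation, 7 were called in MV4-11 KO by edgeR and 9 by DESeq2, in a comparison where 5.41% of all genes were called. In MV4-11 KO, 1 of 8 serine and glycine transporters rose, SLC38A1, a neutral amino acid carrier, from 66.9, 74.7 and 74.6 CPM in EV to a mean of 109 ± 5.93 CPM (SD, n = 3) in KO libraries, of which the highest had 114 CPM. Its log2 fold change was 0.59 (SE 0.08, adjusted p = 5.62e-05). Of 11 folate genes, 1 rose, SLC25A32, by 0.30 (SE 0.08, adjusted p = 0.0351), and 0 fell. Of the 10 methionine cycle and glycine cleavage genes tested, 0 passed edgeR's test in any of the 3 lines, and DESeq2 called 1 in MV4-11. In that line 2 had an unadjusted p under 0.05, as had 3236 of all 14490 genes tested. Of 16 ATF4 response genes, 2 fell in MV4-11 KO, the transcription factor ATF5 (-0.68, SE 0.19, adjusted p = 0.0344) and the pseudokinase TRIB3 (-0.57, SE 0.15, adjusted p = 0.0300), while the median of the list was 0.05. ATF4 itself stood at 177, 139 and 156 CPM in EV and 175, 197 and 166 CPM in KO libraries. MYC stood at 384, 428 and 409 CPM in EV and at 352, 354 and 319 CPM in KO libraries and did not pass. Of 12 proliferation genes, CDK1 (0.36) and PCNA (0.29) rose and MCM6 (-0.34) fell. Their part in the fall of PSAT1, MTHFD1 and MTHFD1L was not tested. In Molm-14 KO the cystine carrier SLC7A11 fell by 0.39 (SE 0.08, adjusted p = 0.00734), the 1 gene of these lists called there by edgeR. In THP-1 KO, 0 of the 57 genes of these lists passed edgeR or DESeq2. An unadjusted p under 0.05 was held by 11 of them and by 1160 of all 14490 genes tested. Of these 11, 9 were among the 16 ATF4 response genes. In that list 12 estimates were above 0 and 4 below, with a median log2 fold change of 0.24 against 0.00 over all genes tested. Groups did not overlap for 8 of the 16, against 13.6% of all genes tested. The summed level of the list was 800 to 827 CPM in THP-1 EV and 835 to 879 CPM in KO libraries.

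With miR-1 OE, none of the 9 enzymes passed when all 4 groups were fitted together, and PSAT1 passed in Molm-14 when that line was fitted alone, as given further on. In MV4-11, 0 of 9 passed edgeR or DESeq2, where 0.177% of genes were called, and in Molm-14, 0 of 9 passed either, where 0.0057% were called. No enzyme had an unadjusted p under 0.05 in either line, nor in the difference of the OE effect between lines, where 0.0456% of genes were called. The median log2 fold change of the 9 was 0.03 in MV4-11 and -0.05 in Molm-14, against 0.01 and 0.00 over all genes.

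The seed of the overexpressed miRNA and its matches among these enzymes are shown because a direct effect would be looked for there. The mature sequence is that of RefSeq, annotated at MIR1-1, chr20:62554351-62554372 on the plus strand of GRCh38.p14, with bases 2 to 8 in capitals.
hsa-miR-1-3p: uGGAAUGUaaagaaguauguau
The 3′ UTR of the canonical GENCODE transcript of each enzyme was searched for ACATTCC, the match to that seed. ALDH1L2 was the 1 of 9 with a match and had 2 in a UTR of 4634 bases, at positions 1515 and 3719, capitals marking the match.
ALDH1L2 site 1: aatttcagtaaACATTCCtttttctttggc
ALDH1L2 site 2: tgatgagagacACATTCCctgactatgctt
Of 19559 genes with a 3′ UTR, 11.7% held at least 1 such match. ALDH1L2 stood at 64.5, 47.4 and 129 CPM in MV4-11 EV and at 147, 76.5 and 48.4 CPM in MV4-11 OE libraries, with a log2 fold change of 0.17 (SE 0.45, adjusted p = 1.00 by edgeR). In Molm-14 it stood at 243, 263 and 270.4 CPM in EV and 255, 265 and 246 CPM in OE libraries, at -0.02 (SE 0.43, adjusted p = 1.00 by edgeR). The groups overlapped in both lines.

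The MV4-11 libraries of the OE series differed widely within each group. PHGDH stood at 42.8, 21.7 and 4.50 CPM in OE and at 12.4, 5.93 and 51.4 CPM in EV libraries, an 11.4-fold range over 6 libraries that cut across the groups. PSAT1 stood at 93.4, 65.8 and 36.8 CPM in OE and 53.5, 43.7 and 100.3 CPM in EV libraries, a 2.73-fold range. The first OE and the third EV library were the highest for both, and for PSPH, SHMT2, MTHFD2, MTHFD1L and ALDH1L2 as well. The ranges of those genes were 3.10-fold for ALDH1L2, 1.94-fold for PSPH, 1.78-fold for MTHFD2, 1.34-fold for SHMT2 and 1.19-fold for MTHFD1L. The cytosolic enzymes SHMT1 and MTHFD1 went the other way and were lowest in those same 2 libraries, with ranges of 1.39-fold and 1.24-fold. Over the 6 Molm-14 libraries the 9 ranges were 1.06-fold to 1.20-fold.

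**Figure D4:**
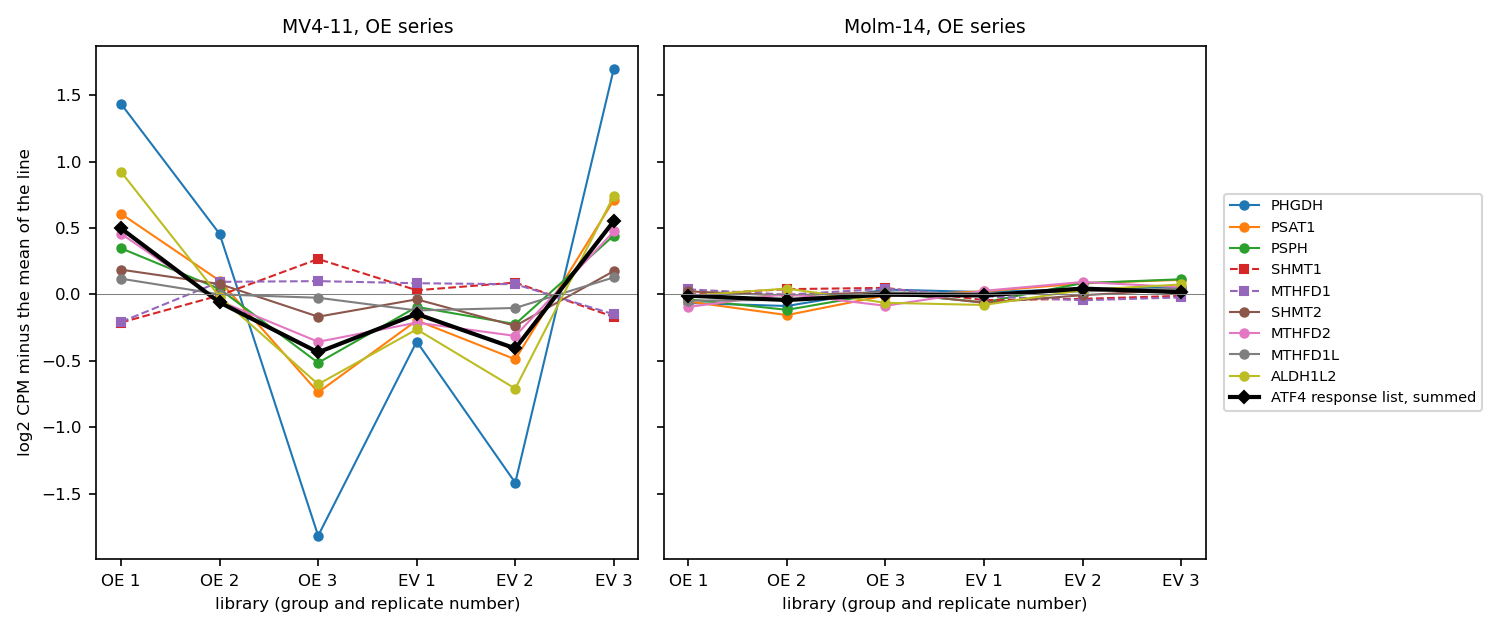
Log2 CPM of each enzyme minus its mean over the 6 libraries of the line (y axis), by library of the OE series (x axis), with the summed ATF4 response list in black. In MV4-11, OE 1 and EV 3 are high for 7 enzymes and low for SHMT1 and MTHFD1 (dashed), whereas the Molm-14 lines are flat.

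The ATF4 response list, which holds none of the 9 enzymes, moved with them. Its summed level in MV4-11 was 1451, 986 and 760.4 CPM in OE and 929, 776 and 1508 CPM in EV libraries, against 1470.2 to 1561 CPM in Molm-14. Over the 6 MV4-11 libraries its log2 sum had a Pearson r of 0.87 to 0.99 with the 7 genes above, and of -0.94 with SHMT1 and -0.93 with MTHFD1, given as a description of libraries that share their processing. The summed proliferation list was lowest in the same 2 libraries, at 3732 and 3890 CPM against 4312 to 4549.5 CPM in the other 4. Summed myeloid markers were lowest there too, at 1658 and 1687 CPM against 1891 to 2214 CPM. What set these libraries apart was not tested. The log2 fold change of PHGDH in MV4-11 OE moved from 0.00 to 1.35 without the third EV library and to -0.77 without the first OE library, and 0 of 9 enzymes passed in either case. That of PSAT1 moved from -0.01 to 0.43 and to -0.34, and that of ALDH1L2 from 0.17 to 0.70 and to -0.35.

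The wide MV4-11 spread entered the test in Molm-14, since all 4 groups shared an estimate of the spread per gene. PSAT1 stood at 185, 193 and 197 CPM in Molm-14 EV and at 176, 164 and 181 CPM in Molm-14 OE libraries, without overlap, at a log2 fold change of -0.14 with an SE of 0.35. With the Molm-14 libraries fitted alone it was -0.15 with an SE of 0.04 and an adjusted p of 0.0229 (edgeR), where 1.24% of 15714 genes were called, and PSAT1 was then the 1 of 9 to pass. MTHFD2 in Molm-14 stood at 291, 305 and 297 CPM in EV and at 268, 287 and 269 CPM in OE libraries, also without overlap, at -0.12 (SE 0.24). SHMT1 and MTHFD1 were higher in OE than in EV libraries without overlap, by 0.06 and 0.05 on the log2 scale. Groups did not overlap for 4 of 9 enzymes in Molm-14, against 14.9% of all genes tested.

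Of the 57 genes tested in the folate, methionine, glycine cleavage, transport, ATF4 response and proliferation lists, 0 passed edgeR or DESeq2 in either OE comparison. In each, 1 had an unadjusted p under 0.05, as had 1035 of all 17542 genes in MV4-11 and 768 in Molm-14. With each line's mean subtracted, the 9 enzymes did not share a single profile. In the OE series SHMT1 and MTHFD1 ran opposite to the others, with a Pearson r of -0.94 between PHGDH and SHMT1. In the KO series r between pairs of the 9 ran from -0.70 (SHMT2 and MTHFD1L) to 0.94 (MTHFD1 and MTHFD1L). Pearson r was also taken between each gene and the mean of the members' standardized log2 CPM, with line means subtracted. The genes closest to that mean were ranked among those with at least 8 CPM on average. Over the 12 libraries of the OE series and 10306 genes these were IARS1 (0.985), SLC7A11 (0.985), ASS1 (0.983), ADM2 (0.982) and MARS1 (0.982). IARS1 and MARS1 are cytosolic aminoacyl-tRNA synthetases, SLC7A11 imports cystine and ASS1 makes argininosuccinate. Over the 18 libraries of the KO series and 9815 genes they were COTL1 (0.859), QARS1 (0.837), LGALS9 (0.821), ACLY (0.809) and TRIM41 (0.792), of which QARS1 is a further aminoacyl-tRNA synthetase. These are descriptions over libraries that share their processing, and the OE-series order reflects mostly the 6 MV4-11 libraries.

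Some reads may belong to other genes. On the opposite strand, SHMT1 overlaps SMCR8, SHMT2 overlaps NDUFA4L2, MTHFD1 overlaps ZBTB25, MTHFD2 overlaps SLC4A5 and ALDH1L2 overlaps WASHC4 and NOPCHAP1. The strand setting of the counting was not given in the sources used here, so shared reads cannot be told apart. The pseudogene PSPHP1 had 0 counts in every MV4-11 library of both series but 104 to 135 in Molm-14 of the OE series, and 25 to 42 in Molm-14 and 14 to 27 in THP-1 of the KO series, so the difference of PSPH between lines is uncertain to the extent that reads were shared.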

How the data were processed

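RNA-seq libraries of MV4-11, Molm-14 and THP-1 cells were analysed in 10 groups of 3. The deposited files hold raw gene counts, in 1 table for the OE series and 1 for the KO series. Per the labels and the study's methods, libraries had been prepared with an Illumina stranded total RNA kit with ribosomal RNA removal, reads trimmed (cutadapt 1.16 in the submitters' processing notes), optical duplicates removed, aligned to GRCh38 with STAR 2.7.6a in 2-pass mode and counted by featureCounts 1.6.3. Ensembl release 102 is named, but the tables list different numbers of genes, so the release behind each is uncertain.

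Counts were scaled by TMM factors and filtered with filterByExpr, and all libraries of a table were fitted in 1 model per group with edgeR 4.0.16 (robust quasi-likelihood test, R 4.3.3). Adjusted p-values are Benjamini-Hochberg over all genes tested, with a 5% threshold, and the 13 comparisons were adjusted separately. Tables were never compared directly. Scripts were tested on simulated data. Replicates of a group differed by more than sampling noise, with a chi-square per degree of freedom of 1.50 to 15.8, and were kept as separate samples. Symbols and lengths came from GENCODE 44 and sequences from RefSeq and GENCODE. Named outside the 9 enzymes were the targets of the vectors, up to 5 called genes per list and comparison by size of change, and the 5 most alike genes per table. ATF4 and MYC were named as list members with their values seen. The enzymes and gene lists were chosen with earlier results of these data known. Alternatives were DESeq2 1.42.0, RLE factors, no filter beyond 1 count, the compared groups alone, a replicate block and leaving out each library.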

Additional observations from a re-analysis of the deposited data

Results flagged for a closer look

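The effect of MPC1 KO differed between lines by a test of the difference itself for 4 genes of the enzyme and context lists, each with an adjusted p from edgeR's interaction test. The effect on PSAT1 exceeded that in MV4-11 by 0.88 (SE 0.15, adjusted p = 0.00111) in Molm-14 and by 0.82 (SE 0.15, adjusted p = 0.0118) in THP-1, from log2 fold changes of -0.61 in MV4-11, 0.27 in Molm-14 and 0.21 in THP-1, of which the last 2 did not pass. TRIB3 differed by 0.99 (SE 0.18, adjusted p = 0.0109) between THP-1 and MV4-11. MCM6 differed by 0.50 (SE 0.13, adjusted p = 0.0484) between Molm-14 and MV4-11. SLC38A1 differed by -0.46 (SE 0.11, adjusted p = 0.0232) in Molm-14 and by -0.67 (SE 0.11, adjusted p = 0.00309) in THP-1 relative to MV4-11. These comparisons share the 6 MV4-11 libraries. No group was tested for single outlying libraries, since each holds 3.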

How the results depend on the processing

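Of 1494 recomputed log2 fold changes of single enzymes, 1461 kept their side of the threshold, 23 lost a call, 10 gained one and 0 reversed a called direction. Of 166 recomputed counts of enzymes called, 10 moved. Fitting only the groups compared left 1 enzyme called in MV4-11 KO in place of 3 and gave 1 in place of 0 in Molm-14 OE. Without the filter beyond 1 count, 2 in place of 1 differed in their KO effect between Molm-14 and MV4-11. Leaving out 1 library at a time gave 1 to 3 called in MV4-11 KO, 1 to 3 for the difference of the KO effect between Molm-14 and MV4-11, and 0 to 1 for that between THP-1 and MV4-11. The causes were not tested, though smaller fits hold fewer libraries. The replicate numbers were not taken to pair the samples. Same-numbered KO and EV, or OE and EV, libraries had deviations correlated at -0.35 to 0.29, and no line had all 3 pairs above 0.1. THP-1 came close, at 0.155, 0.087 and 0.288, against -0.225 to 0.120 for its differently numbered pairs, so a pairing there remains possible. With the replicate block, 7 in place of 8 enzymes were called between Molm-14 and MV4-11 EV in the OE series, MTHFD2 being lost (0.64, adjusted p = 0.0841). The counts of the other 12 comparisons stayed as they were, 3 in MV4-11 KO among them, while calls over all genes in MV4-11 KO went from 784 to 1474. A gene at 0 counts could stand for up to 0.145 to 0.200 CPM in the OE series and 0.338 to 0.544 CPM in the KO series, which covers counting error only.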

Other observations

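MTHFD2L, the mitochondrial relative of MTHFD2, ran opposite to it between lines, at 29.9, 30.7 and 33.2 CPM in MV4-11 EV and 18.5, 22.2 and 20.2 CPM in Molm-14 EV of the KO series. ALDH1L1, the cytosolic relative of ALDH1L2, was at most 0.297 CPM in every library of both series. ASNS, the asparagine synthetase that ATF4 is known to activate, stood at 28.1, 24.4 and 25.4 CPM in MV4-11 EV, at 94.5, 87.9 and 88.5 CPM in Molm-14 EV and at 12.2, 17.8 and 10.9 CPM in THP-1 EV of the KO series, so that THP-1, which had more PHGDH than MV4-11, had less ASNS. These genes were named after their values were seen.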
